A study of Mus musculus with 10 samples.

Results

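Neighbouring cytochrome P450 genes of the mouse liver are described here across the guides of a Cd44 knockout study: Cyp2a4, Cyp2a5, Cyp2a12 and Cyp2a22, which are 4 of the 24537 gene symbols counted. They were taken by name, and the family was selected on the Cyp2a4 and Cyp2a5 levels of the livers that received guide 2, which were high. Its values in those livers are therefore a description and carry no test, whereas the age comparison and the comparison of guide 4 with control did not enter that choice and were tested. All 4 genes passed the count filter.

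RNA of 10 whole livers from male mice was sequenced. Each mouse had received an adeno-associated virus of serotype 8 with Staphylococcus aureus Cas9 under the hepatocyte-directed TBG promoter and a guide RNA under a U6 promoter, so the controls carry virus, nuclease and guide as well. The young control group held 3 mice aged 9 months, given a Rosa26 guide at 7 months, and the old control group held 3 mice aged 25 months, given the same guide at 23 months; Rosa26 is a locus often edited as a neutral site. The knockout groups were old mice of 25 months treated at 23 months, 2 with Cd44 guide 2 and 2 with Cd44 guide 4. Cd44 encodes a hyaluronan-binding cell surface receptor, and every group consists of single livers rather than pools, as far as the labels say. The labels give no replicate number, so livers are numbered in the order of their records, and p-values measure the spread between these livers only.

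CYP2A enzymes are haem monooxygenases of the endoplasmic reticulum that act on steroids and small foreign compounds. Cyp2a5, a close counterpart of human CYP2A6, hydroxylates coumarin and nicotine and is known to be induced in liver by a range of toxicants. Cyp2a4 encodes a testosterone 15-alpha-hydroxylase that differs from Cyp2a5 in few residues, and Cyp2a12 is a steroid hydroxylase of the same subfamily. Known regulators of the Cyp2a5 promoter include the nuclear receptor HNF4A, the oxidative stress factor NRF2 (encoded by Nfe2l2), the xenobiotic receptor CAR (Nr1i3) and the clock-controlled PAR bZIP factors such as DBP.

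The genes lie in the Cyp2 cluster of chromosome 7, on GRCm38 with GENCODE M21 annotation. Cyp2a4 spans 26307169 to 26315088 and Cyp2a5 spans 26835305 to 26843548, both on the plus strand. Cyp2a22 spans 26931631 to 26939384 on the minus strand and Cyp2a12 spans 27029081 to 27037375 on the plus strand. Each is protein-coding with 9 exons. By sequence they form 2 pairs: the transcripts of Cyp2a4 and Cyp2a5 were identical at 98.3% of 1738 aligned bases and those of Cyp2a12 and Cyp2a22 at 96.5% of 1673, against 77.1% to 78.8% across the pairs. This matters for counting, since 22.1% of the 75-base windows of the Cyp2a4 transcript and 25.5% of those of Cyp2a5 also occur in other annotated genes. These were the other gene of the pair and Cyp2a21-ps, and the windows were not counted for each apart. For Cyp2a12 and Cyp2a22 these shares were 14.3% and 13.4%. How the authors assigned such reads is not given in the sources used here, so the split within each pair is less certain than its sum.

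The 250 bases before each RefSeq start (GRCm38.p6, all 4 genes matched) are printed because the genes that read high together share them almost letter for letter. Capitals mark TATAAA (the TATA box), CAAAGTCC (a core of the HNF4 site) and TTGCNNAA (a C/EBP and D-box-like word), searched on both strands.
Cyp2a4 (chr7:26306942-26307191, plus strand): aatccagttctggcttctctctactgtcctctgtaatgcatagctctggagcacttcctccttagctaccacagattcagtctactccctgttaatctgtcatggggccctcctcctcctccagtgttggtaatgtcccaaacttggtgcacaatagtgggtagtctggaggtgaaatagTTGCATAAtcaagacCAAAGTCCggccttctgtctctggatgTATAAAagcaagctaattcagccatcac
Cyp2a5 (chr7:26835089-26835338, plus strand): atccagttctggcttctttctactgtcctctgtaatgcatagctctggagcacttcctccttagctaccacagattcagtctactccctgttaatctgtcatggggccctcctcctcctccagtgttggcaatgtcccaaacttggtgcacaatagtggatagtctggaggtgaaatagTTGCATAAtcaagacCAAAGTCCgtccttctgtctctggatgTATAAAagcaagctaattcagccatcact
Cyp2a12 (chr7:27028840-27029089, plus strand): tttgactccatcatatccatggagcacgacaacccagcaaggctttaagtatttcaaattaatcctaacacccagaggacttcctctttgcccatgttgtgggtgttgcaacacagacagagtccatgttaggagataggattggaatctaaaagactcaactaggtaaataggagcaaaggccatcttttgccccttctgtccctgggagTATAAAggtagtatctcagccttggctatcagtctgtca
Cyp2a22 (chr7:26939387-26939636, minus strand): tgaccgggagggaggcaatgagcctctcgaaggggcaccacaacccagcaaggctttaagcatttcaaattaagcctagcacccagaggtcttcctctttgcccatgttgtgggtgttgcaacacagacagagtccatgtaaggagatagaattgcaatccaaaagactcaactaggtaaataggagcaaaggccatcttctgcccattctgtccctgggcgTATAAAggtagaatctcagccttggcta
Over 249 aligned bases the Cyp2a4 and Cyp2a5 windows had 4 mismatches, T18C, C130T, A160G and T204G, written with the Cyp2a5 base first, its position from 1 at the 5′ end of the printed Cyp2a5 window, and then the Cyp2a4 base. The last of these lies at -47 from the Cyp2a5 start, next to the HNF4 word at -56 to -49. The Cyp2a12 and Cyp2a22 windows were 91.8% identical, with 19 mismatches over 232 aligned bases.

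A TATA word stood in 4 of the 4 windows, against 12.4% of 32851 RefSeq promoter windows of the same length. The HNF4 word stood in 2 of 4, those of Cyp2a4 and Cyp2a5, against 1.2%, and TTGCNNAA in the same 2, as TTGCATAA, against 9.56%. Other words searched were TGACNNNGC (the core of the antioxidant response element, 10.2% of promoters), GCGTG (the AHR core, 28.2%) and AGGTCA (a single nuclear receptor site, 14%). None of these 3 occurred in the 4 windows, which says only that these letters are not in this stretch.

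Total counts were 15821198 to 21710228 per liver, and 14153 genes passed the count filter. Levels are given in CPM, counts scaled to library size with TMM factors. The targeted gene was not called in any guide comparison. Cd44 was at 16.7, 11.2 and 10.1 CPM in young control livers, 14.2, 29.9 and 25.9 in old control livers, 17.6 and 13.1 with guide 2 and 18.9 and 29.0 with guide 4. Its log2 fold change against old control was -0.60 (SE 0.34) with guide 2 and 0.04 (SE 0.33) with guide 4, with edgeR adjusted p-values of 0.774 and 0.999. Between the guides it was -0.64 (SE 0.36, unadjusted p 0.106, adjusted p 1): both guide 2 livers lay below both guide 4 livers, and each guide overlapped the old controls. Guide effects below therefore rest on the labels. Hepatocyte markers (8 of 8 tested) summed to 91465 to 92431 CPM with guide 2 and to 82350 to 128403 in the other livers. The old control livers differed among themselves more than the livers of any other group: chi-square divided by its degrees of freedom was 69.3 to 179.6 for their pairs and 21.7 to 34.0 for pairs within the other groups. Old control replicate 3, whose library name lies outside the run of the other 9, was at -6.2 on the first principal component, where the other 2 were at 32.3 and 55.7. In bulk tissue, fewer cells of a type and less RNA per cell cannot be told apart.

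Cyp2a4 and Cyp2a5 were high in both guide 2 livers but not in the guide 4 livers. Cyp2a4 was at 293 and 199 CPM with guide 2. It was at 19.3 and 32.3 CPM with guide 4, at 23.7, 37.8 and 40.1 CPM in old control livers and at 37.6, 25.5 and 40.6 CPM in young control livers. The guide 2 livers stood above all 8 others, and the other 3 groups overlapped. The fitted fold was 9.52 against guide 4 and 7.27 against old control, log2 fold changes of 3.25 (SE 0.36) and 2.86 (SE 0.31).

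Cyp2a5, the coumarin hydroxylase, was at 1514 and 1413 CPM with guide 2 against 253 and 382 CPM with guide 4. Old control livers had 401, 450.2 and 460 CPM and young control livers 559, 385 and 612 CPM. Guide 2 was again clear of all other livers, while both guide 4 livers lay just below the old controls. The fitted fold was 4.61 against guide 4 (log2 fold change 2.21, SE 0.26) and 3.35 against old control (1.74, SE 0.23). Ranked by mean CPM among all genes, Cyp2a5 moved from place 262 in old control livers to place 75 with guide 2, and Cyp2a4 from place 3875 to place 523.

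**Figure D1:**
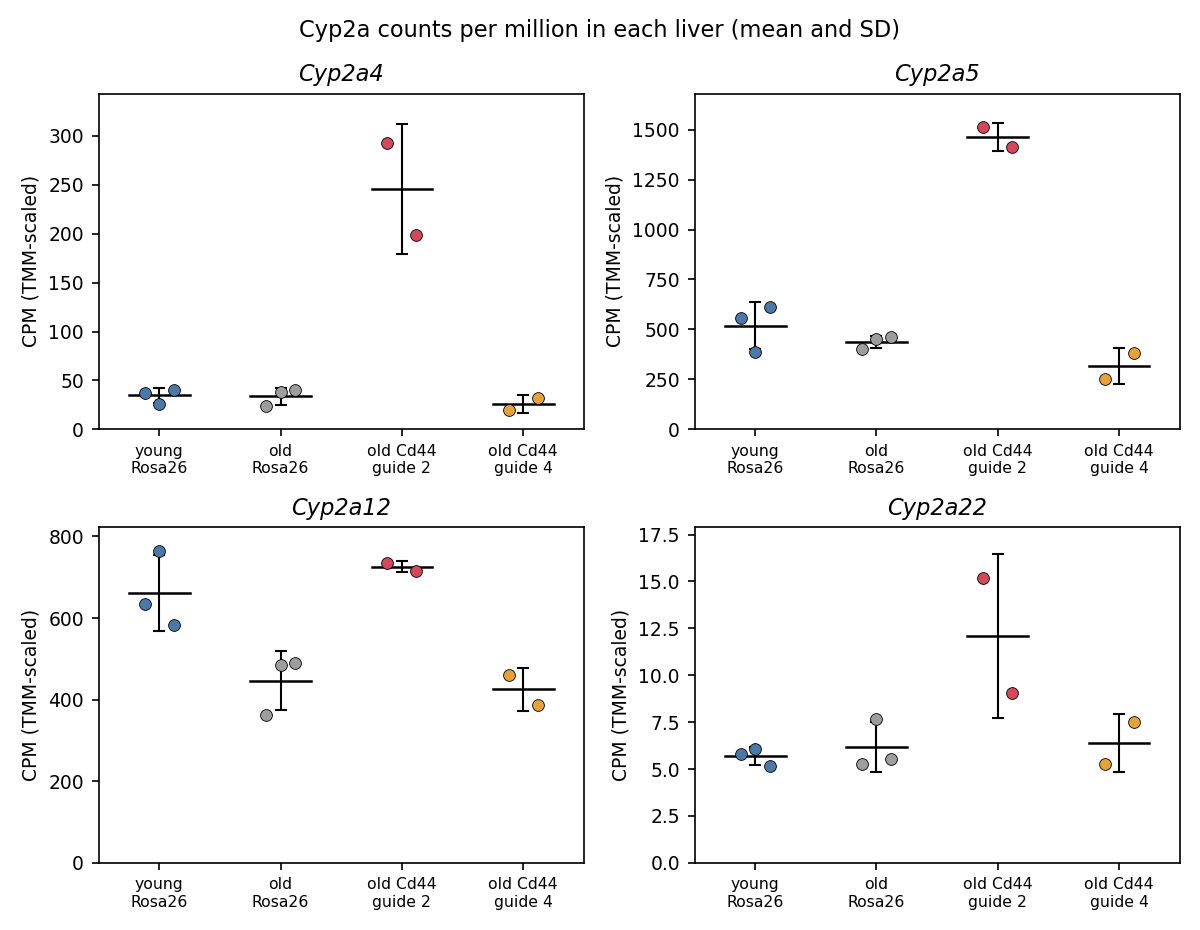
TMM-scaled CPM of the 4 genes in each of the 10 livers, with 1 panel per gene and the 4 groups on the horizontal axis; points are livers and bars the mean and SD. Guide 2 livers stand apart for Cyp2a4 (199 and 293 CPM) and Cyp2a5 (1413 and 1514 CPM), whereas for Cyp2a12 they (716 and 735 CPM) overlap the young controls.

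Cyp2a12 followed another order. It was at 635, 764 and 584 CPM in young control livers, 363, 486 and 490.2 CPM in old control livers, 735 and 716 CPM with guide 2 against 461 and 388 CPM with guide 4. Guide 2 livers thus stood above all other old livers but within the range of the young ones, with a fold of 1.71 against guide 4 and 1.63 against old control. Cyp2a22, the least abundant of the family, was at 15.2 and 9.03 CPM with guide 2, 5.29 and 7.5 CPM with guide 4, 5.25, 7.69 and 5.53 CPM in old control livers and 5.82, 6.09 and 5.14 CPM in young control livers. Its guide 2 livers were the highest but differed from each other by more than all other livers did, and the folds were 1.89 against guide 4 and 1.97 against old control.

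Both guide 2 livers exceeded all 8 others for 3 of the 4 genes. Over all 14153 genes this held for 3%. With edgeR and an adjusted p below 0.05, 3 genes or 0.0212% were called between the guides and 7 or 0.0495% between guide 2 and old control. Cyp2a4 and Cyp2a5 were among both sets, which the choice of the family fixed, so nothing is read from these counts. Leaving out any 1 of the livers compared left 0 calls between the guides and 0 to 3 against old control. The log2 fold changes against guide 4 then ranged from 2.93 to 3.67 for Cyp2a4, 1.94 to 2.53 for Cyp2a5, 0.65 to 0.90 for Cyp2a12 and 0.50 to 1.25 for Cyp2a22. Against old control without its replicate 3, they were 3.0 for Cyp2a4, 1.78 for Cyp2a5, 0.77 for Cyp2a12 and 0.91 for Cyp2a22.

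The make-up of the family differed in the guide 2 livers. Of the reads of the near-identical pair, Cyp2a4 held 16.2% (95% exact binomial interval 15.8% to 16.6%) and 12.4% (12% to 12.7%) in the guide 2 livers. It held 7.09% and 7.81% with guide 4, 5.58%, 7.74% and 8.02% in old control livers and 6.31%, 6.2% and 6.22% in young control livers. The young livers were close together, the old ones spread further, and the guide 2 livers lay above both. The intervals cover counting error only. For each read of Cyp2a4 there were 5.17 and 7.09 reads of Cyp2a5 with guide 2 and 11.5 to 16.9 in the other livers. The share of the family's reads that came from Cyp2a12 was 28.7% and 30.6% with guide 2 and 45.8% to 64.7% elsewhere. A lower share there follows in part from the choice of the family on high Cyp2a4 and Cyp2a5.

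Summed over the family, guide 2 livers had 2558 and 2338 CPM. Guide 4 livers had 739 and 809 CPM, old control livers 793, 982 and 996 CPM and young control livers 1238, 1181 and 1242 CPM. The mean with guide 2 was 3.16 times that with guide 4 and 2.65 times that of old control. As a share of all reads the family took 0.269% and 0.254% with guide 2 and 0.0773% to 0.111% in the other livers. The rarest member, Cyp2a22, had at least 81 reads in every liver. Summed macrophage markers, of which 0 of 8 were called, were at 337 to 444 CPM with guide 2, 429 to 725 CPM with guide 4 and 414 to 1572 CPM in old control livers, which overlapped. Endothelial markers were at 227 to 242 CPM with guide 2, 249 to 282 CPM with guide 4 and 336 to 372 CPM in old control livers, with 0 of 8 called. Stellate cell markers were at 252 to 283, 263 to 299 and 299 to 459 CPM in that order, with 0 of 8 called. For both lists the guide 2 livers lay below all old controls, as did the guide 4 livers for the endothelial list. The part of these cells in the guide 2 values was not tested.

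**Figure D2:**
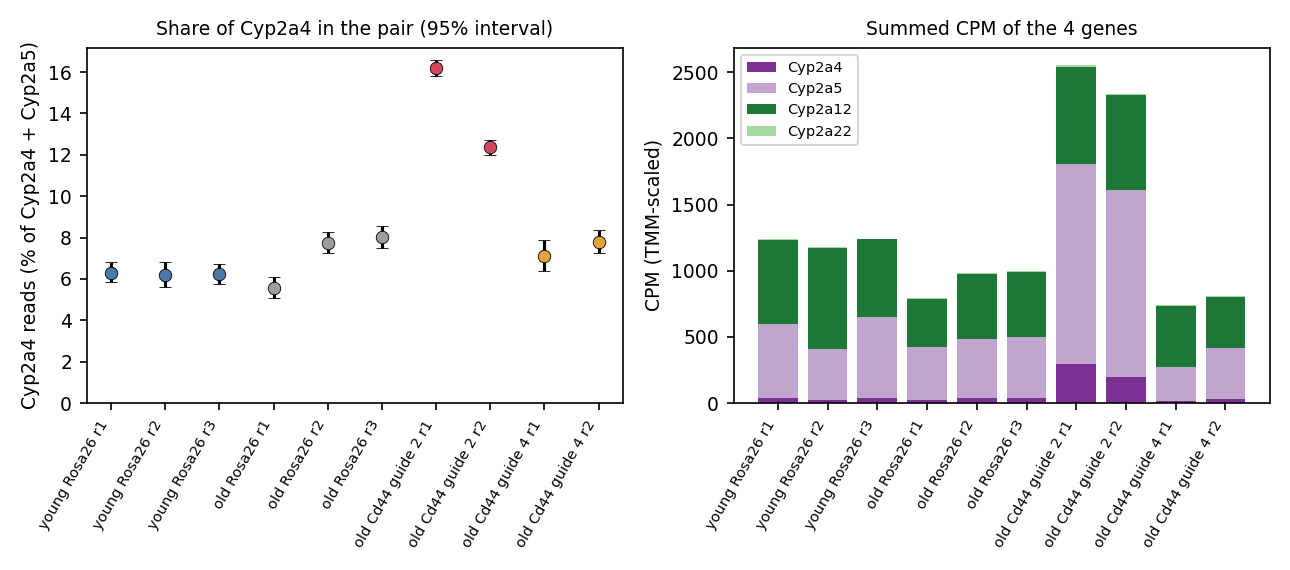
Left, Cyp2a4 reads as a percentage of Cyp2a4 plus Cyp2a5 reads in each liver, with 95% exact binomial intervals; right, TMM-scaled CPM of the 4 genes stacked per liver. The guide 2 livers have Cyp2a4 shares of 16.2% and 12.4% and family sums of 2558 and 2338 CPM, the highest of the 10 in both panels.

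Per kilobase of transcript, the order of the genes changed between groups. In young control livers Cyp2a12 led with 393 ± 55.2 CPM per kb (SD, n = 3), followed by Cyp2a5 with 258 ± 59.0, Cyp2a4 with 19.9 ± 4.61 and Cyp2a22 with 3.16 ± 0.273. In old control livers Cyp2a12 (266 ± 42.9, SD, n = 3) and Cyp2a5 (217 ± 15.7) overlapped in range, at 216 to 292 and 199 to 229 CPM per kb. With guide 2 Cyp2a5 led with 727 ± 35.5 CPM per kb (SD, n = 2), above Cyp2a12 with 432 ± 7.80 and Cyp2a4 with 142 ± 38.1. With guide 4 Cyp2a12 was again first, with 253 ± 30.9 CPM per kb (SD, n = 2) against 158 ± 45.2 for Cyp2a5. Cyp2a22 was last in all 4 groups.

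Guide 4 targets the same gene, and with it no member of the family passed the test. Against old control the log2 fold change was -0.39 for Cyp2a4 (95% interval -1.08 to 0.30), -0.46 for Cyp2a5 (-0.98 to 0.06), -0.07 for Cyp2a12 (-0.49 to 0.35) and 0.06 for Cyp2a22 (-0.56 to 0.67). In edgeR's quasi-likelihood test 0 of 4 were called, with adjusted p-values of 0.981 to 0.997, beside a background of 0 of 14153 genes (0%). At an unadjusted p under 0.05 there were 554 genes, none of them a member, and DESeq2 called 1 gene. Both guide 4 livers lay below all old controls for Cyp2a5 only, at 253 and 382 against 401 CPM or more; this held for 7.87% of all genes. Above all old controls they lay for 0 of 4, beside 7.05% of all genes. Without old control replicate 3 the changes were -0.25, -0.42, 0.00 and -0.01 in the same order, with 0 called. Both guides were compared with the same old control livers.

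With age, Cyp2a12 was lower in the old control livers, at 363 to 490.2 CPM against 584 to 764 CPM in the young ones. Its log2 fold change was -0.57 (SE 0.17, 95% interval -0.94 to -0.19) at an edgeR adjusted p of 0.0413, and the groups did not overlap, as for 17.9% of all genes in this direction. No member had all old livers above all young ones, beside 19.6% of all genes. It was 1 of 4 members called, beside 2894 of 14153 genes or 20.4% in either direction and 7.85% lower, so the count is near the background. The call held without old control replicate 3 (adjusted p 0.0191) and ended without any 1 of the other 5 livers (0.0644 to 0.152). Scaling by library size alone, which shifts the median log2 fold change of all genes from 0.04 to 0.35, gave -0.26 (adjusted p 0.199), and split the calls into 3613 higher of 3975 where TMM gave 1783 of 2894.

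The other 3 genes were not called with age. Without old control replicate 3 they were not called either, with adjusted p-values of 0.331 to 0.671 in edgeR. Cyp2a4 had a log2 fold change of -0.03 (95% interval -0.64 to 0.58), Cyp2a5 of -0.25 (-0.71 to 0.21) and Cyp2a22 of 0.12 (-0.44 to 0.68), with edgeR adjusted p-values of 0.947, 0.407 and 0.763. For Cyp2a4 and Cyp2a5 the sign turned under library size alone, to 0.26 and 0.05. With TMM scaling the family sum was nevertheless 793 to 996 CPM in old and 1181 to 1242 CPM in young control livers, a ratio of 0.757. Library size alone gave mean sums of 979 CPM in old and 1048 CPM in young control livers. As a share of all reads the family took 0.0879% to 0.11% in old and 0.097% to 0.111% in young control livers, which overlapped. With age, markers of other cells also moved: 7 of 8 Kupffer cell and macrophage markers, 6 of 8 endothelial, 5 of 8 stellate cell, 3 of 7 T cell, 4 of 6 B and plasma cell and 4 of 7 neutrophil markers were called higher, beside 12.6% of all genes, and 0 of 5 cholangiocyte markers. Summed macrophage markers were at 414 to 1572 CPM in old and 219 to 306 CPM in young control livers, and neutrophil markers at 13.6 to 292 CPM and 3.36 to 8.88 CPM. Hepatocyte markers had a median log2 fold change of -0.53 with age, with 1 of 8 positive. Of these 8, 2 were called lower, beside 7.85% of all genes. They summed to 82350 to 108669 CPM in old and 100164 to 128403 CPM in young control livers, which overlapped. The part of any of these cells in the age change of Cyp2a12 was not tested.

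The neighbours in the cluster show how far the pattern reaches along the chromosome. Besides the Cyp2a genes, 6 of 9 neighbours passed the count filter. Cyp2b23 and Cyp2b19 had 0 counts in all 10 livers and Cyp2t4 had 2 to 8. Against both guide 4 and old control, 0 of these 6 were called in the guide 2 livers. Cyp2g1, which lies just before Cyp2a5 and is best known from the olfactory mucosa, was at 5.46 and 5.65 CPM with guide 2. It was at 0.523 and 1.35 CPM with guide 4, at 1.28, 3 and 1.53 CPM in old control livers and at 0.98, 0.265 and 0.254 CPM in young ones. Its guide 2 livers were above all 8 others, and the log2 fold change against guide 4 was 2.53 (SE 0.63) at an edgeR adjusted p of 0.451.

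Cyp2b10, the classical CAR target, was at 17 and 6.99 CPM with guide 2 and at 7.5 and 2.62 CPM with guide 4. Old control livers had 2.06, 4.91 and 2.57 CPM and young ones 10, 3.9 and 4.63 CPM. Guide 2 thus overlapped guide 4 and the young controls but lay above all old controls. The log2 fold change of Cyp2b10 against old control was 1.92 (SE 0.58) at an edgeR adjusted p of 0.509. Cyp2f2, a naphthalene hydroxylase of periportal hepatocytes, was at 1497 and 1142 CPM with guide 2, 902 and 636 CPM with guide 4, 602, 957 and 1297 CPM in old control livers and 1813, 2679 and 1791 CPM in young ones. Cyp2b9, a female-predominant gene, was at 22.1 and 2.97 CPM with guide 2 against 11 and 31.3 CPM with guide 4. It was at 0.688, 11.4 and 23.7 CPM in old control livers and 0.306, 0 and 0.127 CPM in young ones. Cyp2b13 was at 1.87 CPM or less and Cyp2s1 at 0.796 CPM or less throughout.

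With age, 3 of the 6 neighbours were called, beside 20.4% of all genes: Cyp2b9 higher (log2 fold change 6.27, SE 1.53, edgeR adjusted p 0.0223), Cyp2g1 higher (1.93, SE 0.57, 0.0411) and Cyp2f2 lower (-1.14, SE 0.29, 0.0257). Over the 6 leave-one-out fits these calls held in 2, 3 and 2 fits, and the highest adjusted p-values were 0.0931, 0.142 and 0.104. The size of the Cyp2b9 change is uncertain, since its young livers had at most 0.306 CPM, near the level of 3 counts.

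**Figure D3:**
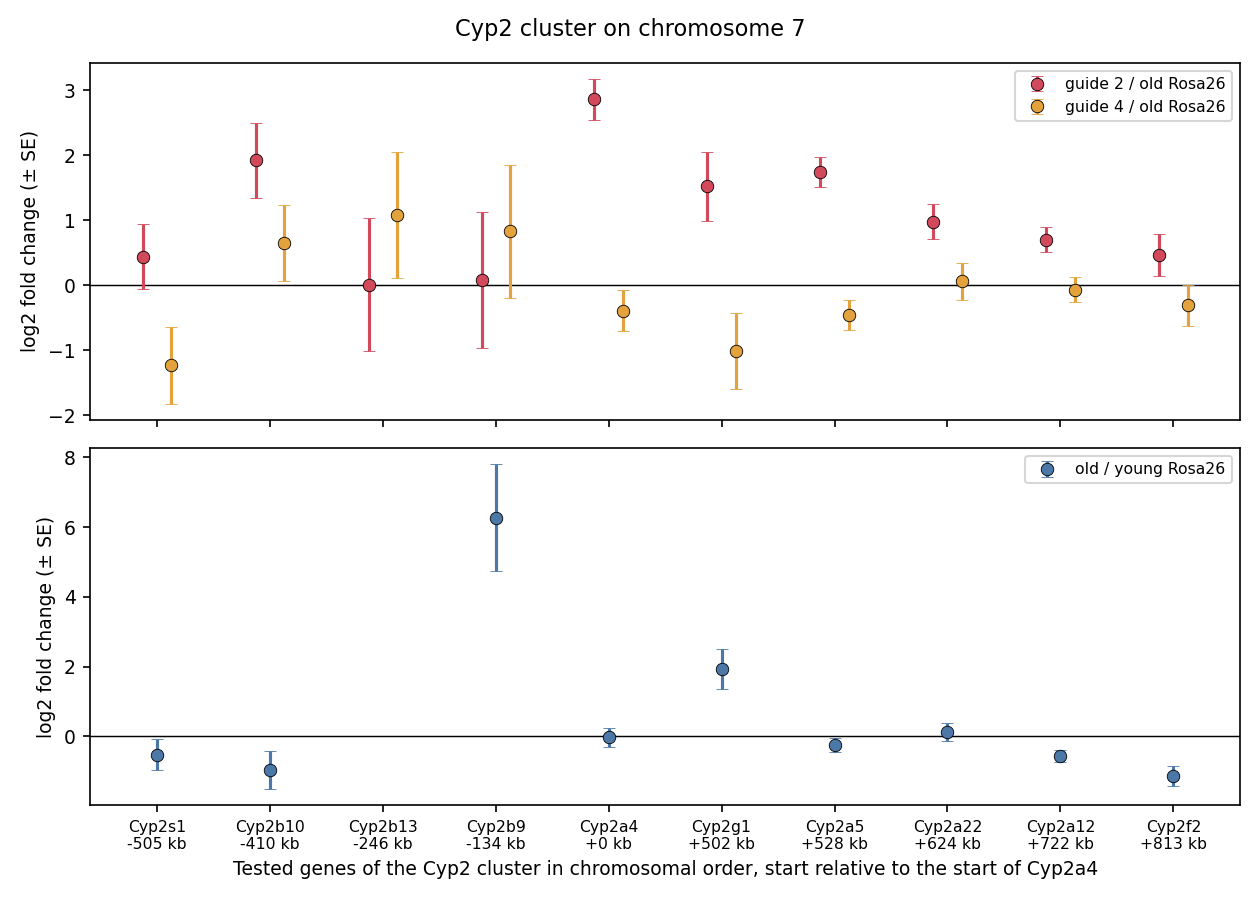
log2 fold change with its SE for the tested genes of the Cyp2 cluster in chromosomal order, with the distance of each start from that of Cyp2a4; the upper panel shows each guide against old control and the lower panel old against young control. In the upper panel Cyp2a4 (2.86) and Cyp2a5 (1.74) have guide 2 values far from those of guide 4 (-0.39 and -0.46). The neighbour Cyp2g1 is also far apart, at 1.52 (SE 0.53) with guide 2 and -1.01 (SE 0.59) with guide 4. Cyp2b13 is left out of the lower panel because it had at most 1 read in each young liver.

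Of 22 genes for factors and partners linked to Cyp2a5 control, 0 were called in either guide 2 comparison, and their median log2 fold change between the guides was 0.03, against -0.00 for all genes tested. Hnf4a was at 567 and 624 CPM with guide 2 against 610.4 and 581 CPM with guide 4, so the guides overlapped. Nfe2l2, which encodes NRF2, was at 110 and 141 CPM with guide 2 against 106 and 113 CPM with guide 4. Nr1i3, which encodes CAR, was at 98.3 and 115 CPM with guide 2 against 102 and 160.2 CPM with guide 4. Nfya, a subunit of the CCAAT-binding factor NF-Y, had the largest absolute difference of the list, -0.47 on the log2 scale (SE 0.19), at an edgeR adjusted p of 0.987.

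With age, 3 of these 22 genes were called higher and 2 lower, beside 12.6% and 7.85% of all genes. Hnf4a fell from 1168, 1191 and 1069.5 CPM in young to 436, 474 and 842 CPM in old control livers, which edgeR put at -0.97 on the log2 scale (SE 0.23, adjusted p 0.021). Cebpb, a bZIP factor of liver, fell by 0.78 on the log2 scale (SE 0.20, adjusted p 0.0287), and Ppargc1a, a coactivator of fasting metabolism, had a log2 fold change of 0.94 (SE 0.24, adjusted p 0.0271). In the 6 leave-one-out fits these calls held in 2, 2 and 1, with adjusted p-values of up to 0.0798, 0.0928 and 0.093.

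Genes known as NRF2 targets leaned the same way as Cyp2a5 in the guide 2 livers without passing the test. Of 24 tested, 23 had a positive log2 fold change against guide 4, with a median of 0.49, whereas 49.5% of all genes tested were positive. Against old control, 21 of 24 were positive, with a median of 0.49 beside -0.03 for all genes and a share of 45.0%. Both guide 2 livers exceeded all 8 others in 3 of 24 (Nqo1, Pgd and Cbr3), beside 3% of all genes. Called were 0 of 24 in either comparison by edgeR. DESeq2 called 4 and 5, and limma voom 0 and 1. Both comparisons share the guide 2 livers.

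Cbr3, a carbonyl reductase, was at 25 and 17.4 CPM with guide 2 against 2.62 and 2.96 CPM with guide 4. Old control livers had 2.65, 2.46 and 3.81 CPM and young ones 5.76, 15.9 and 6.91 CPM. Its log2 fold change against old control was 2.83 (SE 0.40) at an edgeR adjusted p of 0.0501. Gsta1, a glutathione transferase, was at 199 and 153 CPM with guide 2, 51.2 and 51.7 CPM with guide 4, 38.4, 32.4 and 50.4 CPM in old control livers and 109.6, 218 and 93.1 CPM in young ones. Nqo1, a quinone reductase, was at 38.8 and 30.1 CPM with guide 2 and 10.6 to 21 CPM in the other livers. Gstm3, another transferase that CAR also regulates, was at 759 and 484 CPM with guide 2 against 177 and 155 CPM with guide 4, but reached 590.3 CPM in a young control liver. Slc7a11, the cystine transporter, was at 0.33 and 1.28 CPM with guide 2 against 0.232 and 0.305 CPM with guide 4.

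With age, 12 of the 24 NRF2 targets fell and 0 rose by edgeR's test, beside 7.85% of all genes called lower and 12.6% higher. The other 12 were not called, 5 of the 24 had a positive log2 fold change, and the median was -0.63. Gsta1 had a log2 fold change of -1.80 (SE 0.30, adjusted p 0.0113), Me1, the malic enzyme, of -1.09 (SE 0.19, 0.0114) and Cbr3 of -1.68 (SE 0.37, 0.0181). The count of 12 became 1 without young control replicate 2, 2 without old control replicate 2 and 6 without young control replicate 1, and 3 when the age groups were fitted alone. Under library size alone 8 fell, 1 rose and the median was -0.32. Without a liver, the call of Gsta1 held in 6 of 6 fits, that of Me1 in 5 and that of Cbr3 in 4.

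**Figure D4:**
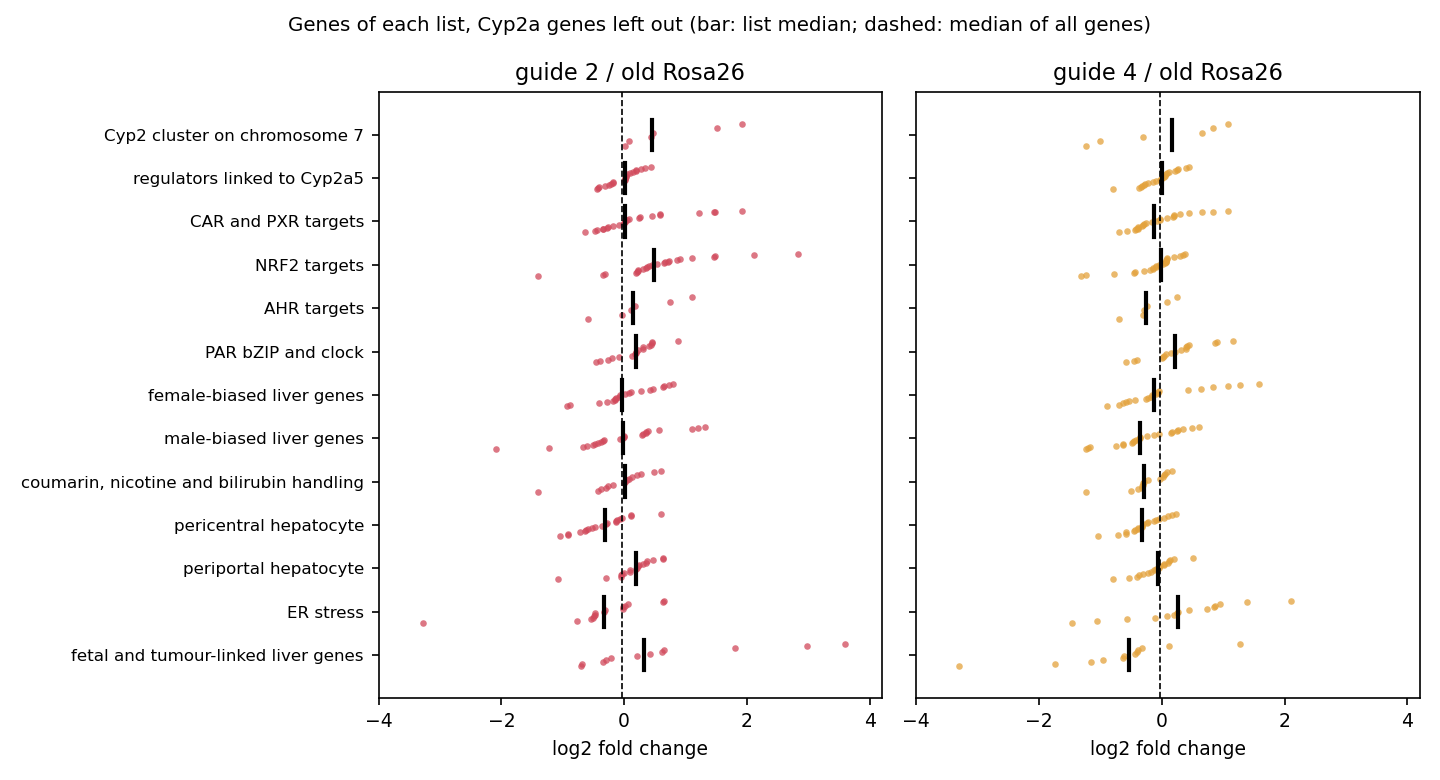
log2 fold change of each tested gene of the lists, with guide 2 (left) and guide 4 (right) against old control. The Cyp2a genes are left out, a bar marks the list median and the dashed line the median of all genes. NRF2 targets have medians of 0.49 and -0.01 in that order, and the regulators of Cyp2a5 of 0.02 and -0.0.

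Targets of CAR and its relative PXR, among them other detoxifying enzymes, had a median log2 fold change of 0.18 between the guides, with 17 of 24 positive and 0 called. Gstm3, Gsta2 and Ephx1 are in both this list and that of NRF2. Gsta2, a glutathione transferase, was at 125 and 103 CPM with guide 2 against 48.9 and 52.4 CPM with guide 4, and in a young control liver at 128 CPM. Of the targets of the dioxin receptor AHR 0 of 6 were called, with a median of 0.15. Cyp1a1, their classical member, was at 1.93 and 3.61 CPM with guide 2 and 1.28 to 2.21 CPM elsewhere, so the groups overlapped.

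Other functions tied to CYP2A enzymes were examined in the same way. Of 15 tested genes that handle coumarin, nicotine and bilirubin, 0 were called between the guides, with a median log2 fold change of 0.11. The bilirubin-related reductase Blvrb was at 190.4 and 217 CPM with guide 2, above the 111 to 179.6 CPM of the other livers. Cyb5a and Por, the electron donors of P450 enzymes, were at 881 and 914 CPM and at 210.4 and 176 CPM with guide 2, both within the range of the other livers. Genes of the PAR bZIP factors and the clock had a median of -0.01 with 0 of 17 called, and Dbp was at 74.3 and 90.9 CPM with guide 2 against 78.4 and 87.8 CPM with guide 4.

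Sex-biased and zonal genes gave no call between the guides. Of 20 female-biased genes outside the family 0 were called between the guides, with a median of 0.14, and of 23 male-biased genes 0 were called, with a median of 0.11. With age 13 of the 23 male-biased genes fell, beside 7.85% of all genes, a count that became 1 without young control replicate 2 and 6 without old control replicate 2. Pericentral genes, which mark the zone where Cyp2a5 protein is known to be found, had a median of -0.15 with 0 of 20 called, and periportal genes of 0.17 with 0 of 18 called. The endoplasmic reticulum stress list had a median of -0.93 between the guides with 0 of 15 called. Its values rest partly on guide 4 replicate 1, in which Creld2 was at 352 CPM against 70.4 CPM in the other guide 4 liver.

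Beyond the family, few genes were called in the guide 2 livers. Spats2l was at 9.41 and 9.96 CPM with guide 2 and at 1.4 to 2.76 CPM in all other livers. Its log2 fold change was 2.60 (SE 0.29, edgeR adjusted p 0.0295) between the guides and 2.06 (SE 0.25, 0.0273) against old control. Slc1a1, a glutamate transporter, was at 7.01 and 8.91 CPM with guide 2 and at most 0.254 CPM elsewhere (adjusted p 0.0273 against old control, where it had 1 to 3 reads). Ly6a and Ly6d encode surface proteins of the Ly6 family, and Oasl2 is an interferon-induced gene. Against old control Ly6d had a log2 fold change of 2.97 (SE 0.36, adjusted p 0.0273), Oasl2 of 2.16 (SE 0.29, 0.0439) and Ly6a of 2.41 (SE 0.33, 0.0477). Leaving out 1 liver ended these calls in most fits: against old control Slc1a1 and Oasl2 were called in 0 of 5, Spats2l and Ly6a in 1 and Ly6d in 2, with adjusted p-values of up to 0.328 for Spats2l, Slc1a1 and Oasl2, 0.278 for Ly6d and 0.411 for Ly6a. The log2 fold changes stayed positive in these fits, at 1.97 to 2.20 for Spats2l, 1.94 to 2.28 for Oasl2, 2.20 to 2.87 for Ly6a and 2.18 to 3.47 for Ly6d.

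The pattern over livers was set beside that of the 12700 genes with a mean of at least 1 CPM, by Pearson's r of log2 CPM over the 10 livers, which share libraries and groups. Cyp2a4 and Cyp2a5 had an r of 0.971 with each other, and of 0.864 over the 8 livers without guide 2. Most like the sum of the pair were Rnaset2a (0.93) and Rnaset2b (0.929), near-identical copies whose counts may be split between them, then the transporter gene Abcc4 (0.921), Ly6c1 (0.908) and Slc1a1 (0.906). Without the guide 2 livers these became 0.423, 0.509, 0.764, 0.671 and 0.174. Lowest were Sept5 (-0.932), Peli3 (-0.93) and Spsb4 (-0.921), and these 3 had values of -0.766 to -0.795 without guide 2. All these genes were chosen over the 10 livers, so values over 8 of them are no separate check. Abcc4 was at 11.9 and 8.74 CPM with guide 2 and at 2.03 to 5.32 CPM in the other livers.

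Cyp2a12 was less like the pair, with an r of 0.632, or 0.343 without guide 2. The genes most like it were Mettl7a1 (0.967), Itm2b (0.965) and Gstm3 (0.944), which had 0.963, 0.97 and 0.943 without the guide 2 livers. These genes were chosen over all livers, the other 8 included, so the second values are no separate check. Cyp2a22 had an r of 0.783 with the pair and of -0.01 without guide 2. The 3 genes most like it, 5330417C22Rik (0.898), Dcaf12l1 (0.896) and 9030617O03Rik (0.895), had 0.446, 0.641 and 0.590 without those livers.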

How the data were processed

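The authors deposited raw counts in 1 table, with a row per gene symbol, a column for each of 10 livers and no normalization. Per the labels' protocols, RNA was purified with a Direct-zol kit, polyadenylated RNA libraries were made with the Watchmaker kit and paired reads of 75 bases were sequenced on an AVITI instrument. The submitters' processing notes name FastQC 0.11.8, Trim Galore 0.4.4, STAR 2.5.3a, HOMER and the build mm10; annotation, strand and the handling of reads with several matches are not given in the sources used here. Of 24537 symbols, 5807 had no count.

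Counts were tested with edgeR 4.0.16 (quasi-likelihood, TMM, filterByExpr with a minimum count of 10 and total of 15, 1 coefficient per group over all livers). P-values were Benjamini-Hochberg adjusted over 14153 genes, with calls under 0.05. SE is the absolute log2 fold change over the root of F. DESeq2 1.42.0 and limma 3.58.1 were alternatives. The biological coefficient of variation was 22.1%, and 3 counts correspond to 0.131 to 0.198 CPM. Replicate pairs differed by more than counting noise. Log2 CPM for likeness had a prior count of 2. Code was tested on simulated data. There, edgeR called 24% of genes with a log2 change of 1 between the guides. Against old control it called 29% of them for guide 4 and 32% for guide 2. A list with 0 called can therefore hold changed genes.

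The members and lists were chosen with earlier results of these data known. Named were the members, Cd44, tested cluster genes, per list up to 5 genes with the largest difference between the guides and up to 3 called with age, up to 10 genes called with guide 2, and the genes most like the members. Some further genes (Nfe2l2, Dbp, Pgd, Cyb5a, Por, Ephx1) were named after their values were seen. Bmal1 matched no symbol.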

Additional observations from a re-analysis of the deposited data

Results flagged for a closer look

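Each guide was set against the mean of the old control livers, and for Cyp2a4 and Cyp2a5 every liver of one guide lay above that mean and every liver of the other below it. Cyp2a4 was at least 2.6 higher on the log2 scale in the guide 2 livers, while the higher guide 4 liver was at -0.03. Cyp2a5 was at least 1.7 higher in the guide 2 livers, and the higher guide 4 liver was at -0.19. These differences were not tested, because the guide 2 livers had chosen the genes, which also fixed the guide 2 side. How many of all genes split in this way was not counted. For Cyp2a4 the higher guide 4 liver, at 32.3 CPM, lay within the old control range of 23.7 to 40.1 CPM.

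Spats2l differed between the guides by a test of the difference itself, a log2 fold change of 2.60 with an SE of 0.29 and an adjusted p of 0.0295 in edgeR. It was higher in 2 of 2 guide 2 livers than in all 8 others. The call was lost in 4 of 4 fits that left out 1 liver of either guide, with adjusted p-values of 0.243 to 0.403, while the log2 fold change stayed between 2.42 and 2.79.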

How the results depend on the processing

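No paired analysis was possible because the library numbers in the labels are not replicate or pair numbers. Of 302 values under alternatives, 237 were labelled the same, 45 moved, 9 lost their call and 11 changed sign. The same meant a similar count of calls, or a tested fold change that kept its sign and its side of the threshold. For all other values it meant a difference within an SD of the livers. Family sums and Cyp2a4 shares without single livers could not leave that range, so their labels carry no information. Where 1 liver of a pair is left out, the lone liver is assumed to vary like the other groups. With age, the count of 2894 genes became 1192 with only the groups compared and ranged from 52 (without young control replicate 2) to 5292 (without old control replicate 3). The call of Cyp2a12 with age was lost with library size alone (-0.26, adjusted p 0.199), with no filter (-0.57, 0.0527), with only the groups compared (-0.56, 0.0921) and with guides pooled (-0.56, 0.119). It held with RLE factors, limma voom and DESeq2, and ranged from -0.65 to -0.44 without single livers. Library size alone turned Cyp2a4 with age to 0.26 and Cyp2a5 to 0.05. Without single livers Cyp2a4 with age ranged from -0.21 to 0.17 (0.04, 0.10 and 0.17 where the sign turned), and Cyp2a22 from -0.07 to 0.22. Against old control, guide 4 gave -0.20 to 0.05 for Cyp2a12 (0.05 and 0.00 where the sign turned) and -0.22 to 0.28 for Cyp2a22 (-0.04, -0.22 and -0.01); DESeq2 called 1 gene and no left-out liver more than 0.

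Between the guides, 3 calls became 10 with no filter, 36 with only the groups compared, 74 with DESeq2 and 0 to 0 without single livers. Against old control, 7 calls of guide 2 became 4 with RLE factors, 11 with library size alone, 25 with no filter, 1 with only the groups compared, 15 with limma voom, 111 with DESeq2, 4 with Cyp2a4 and Cyp2a5 summed and 0 to 3 without single livers. The summed pair had log2 fold changes of 2.32 against guide 4 and 1.86 against old control. Without single livers, guide 2 gave 1.94 to 2.53 for Cyp2a5 and 0.65 to 0.90 for Cyp2a12 against guide 4, and 0.56 to 1.30 for Cyp2a22 against old control. Library size alone gave mean family sums of 1048 CPM in young control, 979 CPM in old control, 2612 CPM with guide 2 and 835 CPM with guide 4. Leave-one-out counts and other scalings of the lists with age were chosen after seeing the data: genes lower with age ranged from 1 to 14 for NRF2 targets, 1 to 15 for male-biased genes and 1 to 8 for endoplasmic reticulum stress. The causes of these shifts were not tested, and the fits that leave some livers out also hold fewer livers.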

Other observations

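Genes of fetal and tumour-linked liver expression had a median log2 fold change of 1.12 between the guides, with 11 of 12 tested positive and 0 called, and the median was also 1.12 with Gpc3 at its bound, which had at most 3 reads in each guide 4 liver. Spink1, a secreted trypsin inhibitor, was at 1.46 and 1.34 CPM with guide 2 and at 0.331 CPM or less in the other livers, and Igf2, a fetal growth factor, was at 2.26 and 6.99 CPM with guide 2 against 0.465 and 1.48 CPM with guide 4. With guide 2 against old control 1 of the 12 was called, Ly6d, 7 were positive and the median was 0.32. With guide 4 against old control 2 of the 12 were positive, 0 were called and the median was -0.53.

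The third principal component of log2 CPM, with 8.6% of the variance, had the guide 2 livers at 29.3 and 27.7, far from guide 4 at -8.5 and -14.3.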
